A study of Mus musculus with 18 samples.

Results

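The cytosolic ribosomal protein (RP) genes encode the protein part of the ribosome, the particle that makes all other proteins of the cell outside the mitochondria. Of the 55401 genes in the mRNA count tables, 76 were taken as members: the protein-coding genes whose symbols carry the standard names Rpl or Rps with a number, plus Rplp0, Rplp1 and Rplp2. The large (60S) subunit accounted for 46 of them and the small (40S) subunit for 30. A further 2 symbols of the same form, Rps3a2 and Rps3a3, are annotated as pseudogenes and were left out. No member was chosen by its own measured level or change, though the set was chosen with earlier results of these data known.

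The study asked what loss of exportin 4 (XPO4), a carrier that takes cargo out of the nucleus, does to RNA in NIH/3T3, a fibroblast line from mouse embryos obtained from ATCC. WT cells were compared with a KO line in which CRISPR-Cas9 had left a frameshift deletion in the initial coding exon of Xpo4 on both gene copies, with 3 mRNA libraries of each. No other treatment, age or strain is given, and the sources name a single edited line, so differences that arose in that line apart from the edit cannot be told apart from the effect of losing XPO4. The 12 other libraries of the study counted circular RNA (circRNA) junctions in whole cells, cytoplasm and nuclei of the same genotypes, 2 libraries each.

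Ribosomal proteins are made in matched amounts and assembled in the nucleolus and nucleus on ribosomal RNA, before both subunits leave for the cytoplasm. Their mRNAs are among the most abundant in dividing cells and start with a run of pyrimidines, the 5′ terminal oligopyrimidine (TOP) tract, through which mTOR and LARP1 set their translation and stability together. RP genes have also left very many processed pseudogenes in mammalian genomes, which matters for how their reads are counted.

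Before any direction is read, the state of the libraries has to be given. The column heading inside each of the 6 mRNA tables names the opposite genotype to the title of its sample. The titles were followed throughout, and every direction below would turn if the headings were right. Xpo4 itself, on chromosome 14, could not settle this: it had 33.0, 31.5 and 31.2 CPM (counts per 1000000 counted reads, scaled by TMM) in the libraries labelled WT and 39.8, 28.4 and 40.4 in those labelled KO. The groups overlapped, with a log2 fold change of 0.18 ± 0.11 (SE) and an adjusted p of 0.193 in edgeR's quasi-likelihood test, and a count over all exons does not check a small deletion. Without KO replicate 2 it was higher in the libraries labelled KO (log2 fold change 0.34, edgeR adjusted p = 0.000252), as it was with a trend of counts with gene length removed (0.26, adjusted p = 0.0143). The libraries held 16974062 to 22057323 counted reads. All 37 mitochondrially encoded genes were listed at 0 in every library. The labels' extraction text speaks of peripheral blood, yet the 10 fibroblast markers summed to 20761 to 24037 CPM, with Col1a2 at 4199 to 5099 CPM. Of these 10 markers, 6 were higher and 3 lower in KO at an edgeR adjusted p under 0.05, against 25.1% and 23.6% of all genes tested. Their log2 fold changes ran from -0.34 to 4.89. Of the 10 blood cell markers, Cd3e, Hbb-bs and Ms4a1 were at 0, and all 10 together summed to 7.83 to 9.80 CPM in WT and 3.35 to 3.58 CPM in KO. Of the 5 epithelial markers, Epcam and Krt18 were at 0 and the list summed to under 0.5 CPM in every library. KO replicate 2 stood apart from the other KO libraries: its chi-square per gene against them was 9.74 and 11.3, against 3.47 between KO replicates 1 and 3 and 2.92 to 4.65 between WT libraries.

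As a group, the RP genes were lower in KO. In the test over all 14688 genes that passed the filter on low counts, which every member passed, 48 of the 76 RP genes were lower at an adjusted p under 0.05, 3 were higher and 25 did not pass. Of all genes tested, 23.6% were called lower and 25.1% higher. The median log2 fold change of the RP genes was -0.31, which is 0.806 of the WT level, with quartiles at -0.42 and -0.13; the median over all genes tested was -0.0029. The members below zero numbered 67 of 76, against 50.3% of all genes tested. In 43 members all 3 KO libraries lay below all 3 WT libraries, which was true of 28.7% of the genes tested, and in 3 they all lay above.

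**Figure D1:**
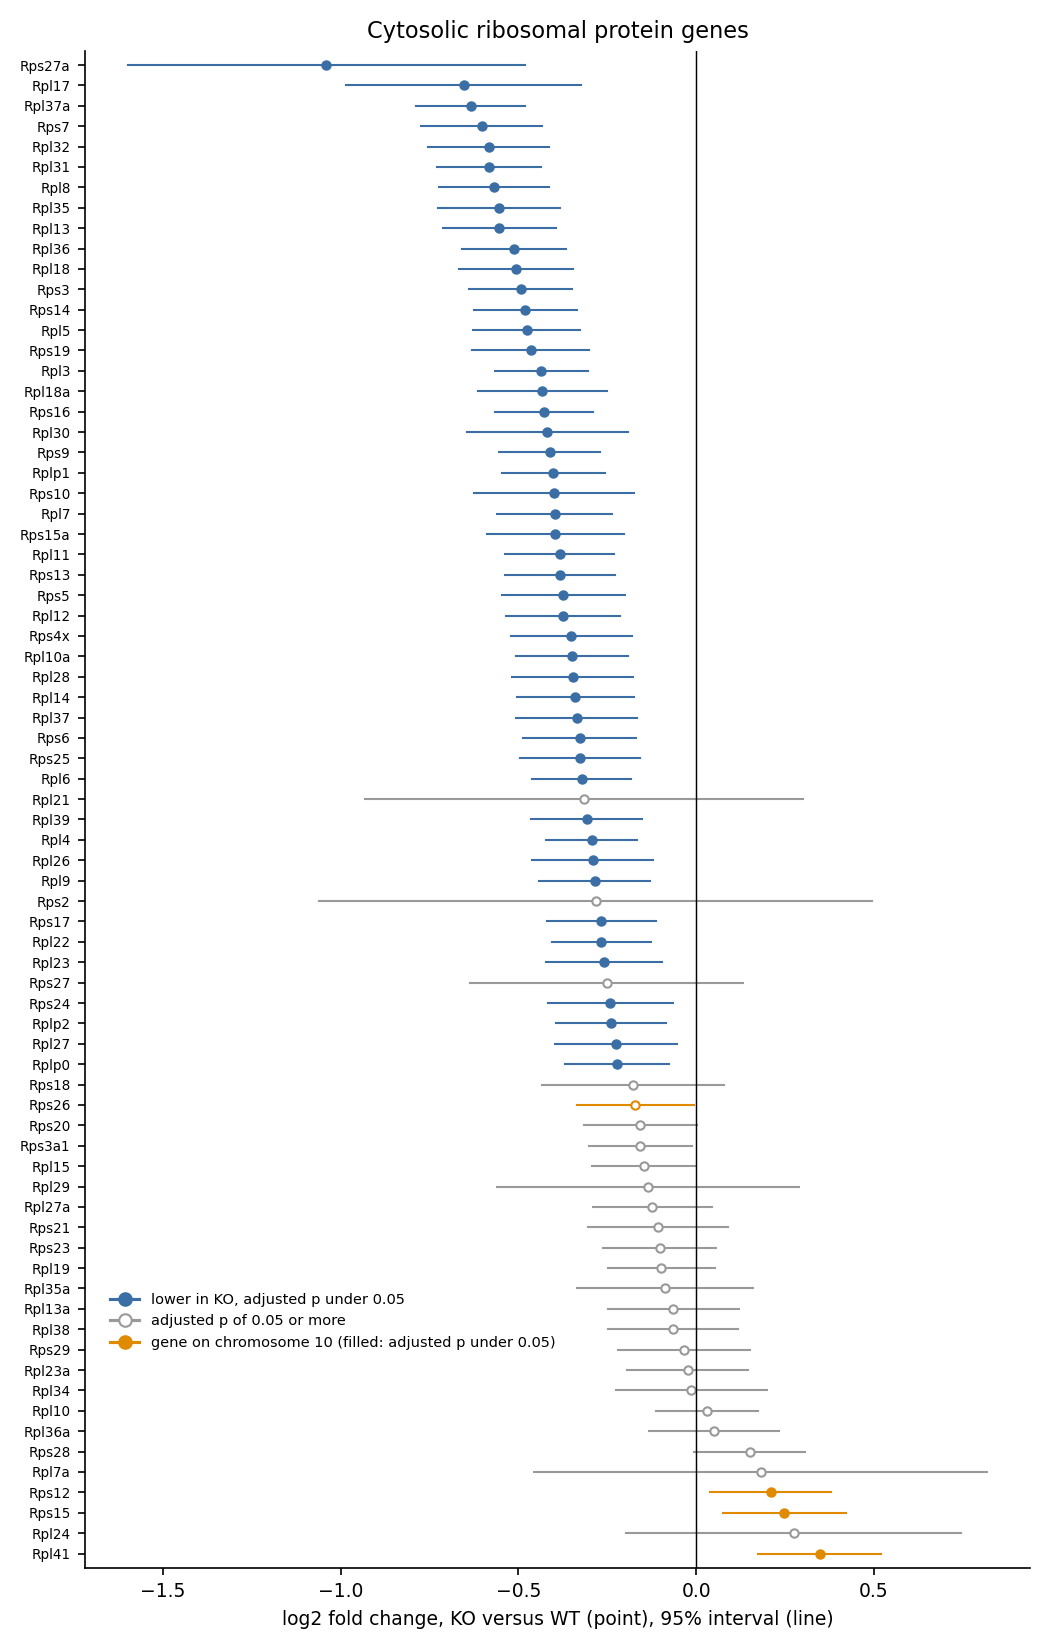
Log2 fold change of 74 of the 76 RP genes (the other two are not reported here), KO versus WT (horizontal axis, point), with its 95% interval (line), ordered from the largest fall to the largest rise. Most points lie left of zero, and the 3 filled points to its right are Rpl41, Rps15 and Rps12, all on chromosome 10.

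The large subunit and the small subunit moved by about the same amount. Among the 46 large subunit genes 31 were lower and 1 higher, with a median log2 fold change of -0.31; among the 30 small subunit genes 17 were lower and 2 higher, also with a median of -0.31. The shares over all genes tested were 23.6% lower and 25.1% higher. The difference between the subunits was not tested.

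All RP genes together took 6.22%, 6.73% and 6.75% of counted reads in the WT libraries and 5.09%, 5.95% and 4.92% in the KO libraries. Each KO library was below each WT library. The mean fell from 6.57% ± 0.303 to 5.32% ± 0.552 (SD, n = 3 each), a ratio of 0.810, with p = 0.1 in a two-sided exact permutation test, which is the smallest p that 3 against 3 can give. A share of reads is relative: less RP mRNA per cell and more of other RNA cannot be told apart in it.

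The RP genes also moved together from library to library. Relative to each gene's WT mean, the median member stood at -0.085, 0.035 and 0.051 (log2) in WT replicates 1, 2 and 3, and at -0.37, -0.14 and -0.43 in KO replicates 1, 2 and 3. In WT replicate 1, 73 of 76 members were below their WT mean, while the median over all genes tested was within 0.006 of zero in every library. KO replicate 2, the library that stood apart, had the smallest fall of the 3 KO libraries. Without it 58 members were lower, 2 were higher and the median was -0.39.

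**Figure D2:**
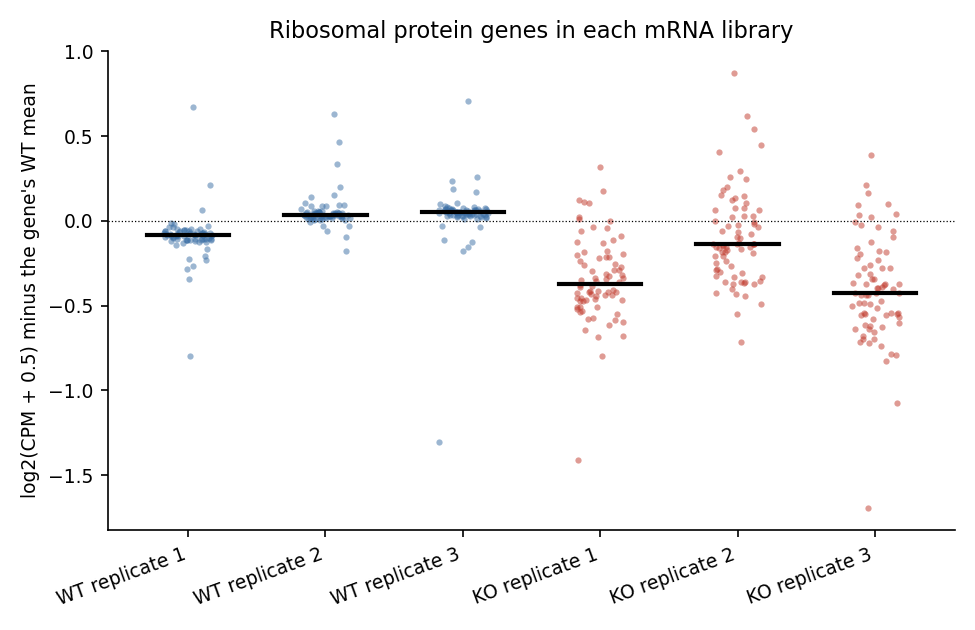
Each point is 1 RP gene in 1 library, as log2(CPM + 0.5) minus the gene's mean over the WT libraries (vertical axis), for the 6 mRNA libraries (horizontal axis); bars are medians. The KO medians of -0.37, -0.14 and -0.43 lie below the lowest WT median of -0.085.

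Of the 10 lower members with the largest falls, 8 belong to the large subunit. Rpl37a, a zinc-binding protein of the large subunit (chr1:72711290-72713813, mm10), was measured at 861, 934 and 953 CPM in WT and 586, 652 and 531 CPM in KO. All KO values were below all WT values, and the log2 fold change was -0.63 ± 0.07 (SE; edgeR adjusted p = 8.21e-06). No near-identical copy of its mRNA was found elsewhere in the genome, so its reads are not contested by a pseudogene of that kind. Rpl31 (chr1:39367842-39371911) had 847, 890 and 901 CPM in WT against 548, 655 and 557 CPM in KO. It too showed a gap between the groups, with a log2 fold change of -0.58 ± 0.07 (edgeR adjusted p = 1.11e-05), although 12 near-identical copies exist and 25.3% of its exon bases are shared with Tbc1d8.

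Rpl8, a protein close to the peptidyl transferase centre (chr15:76904078-76906314), read 1935, 2069 and 2073 CPM in WT and 1339, 1532 and 1226 CPM in KO. Its log2 fold change was -0.57 ± 0.07 (edgeR adjusted p = 2.28e-05), it has no near-identical copy and shares no exon base, and its KO libraries were all well below WT. Rpl32 (chr6:115805505-115808747) went from 1132, 1218 and 1208 CPM to 736, 914 and 723 CPM, a log2 fold change of -0.58 ± 0.08 (edgeR adjusted p = 4.33e-05). Rpl13 (chr8:123102350-123105244) went from 1757, 1836 and 1850 CPM to 1185, 1406 and 1116 CPM, a log2 fold change of -0.55 ± 0.07 (edgeR adjusted p = 3.61e-05). In both, no KO library reached the lowest WT library.

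Rpl36 (chr17:56613416-56614243) was at 663, 709 and 704 CPM in WT and 472, 538 and 444 CPM in KO, a log2 fold change of -0.51 ± 0.07 (edgeR adjusted p = 3.61e-05). Rpl35, which sits near the exit of the peptide tunnel (chr2:39001580-39005624), was at 405, 428 and 429 CPM in WT and 280, 327 and 251 CPM in KO. Its log2 fold change was -0.55 ± 0.08 (edgeR adjusted p = 7.23e-05), but 66.2% of its exon bases overlap Arpc5l or Wdr38, and reads on such bases were not counted. Rpl17 varied more: its 337, 257 and 284 CPM in WT and 243, 177 and 137 CPM in KO did not overlap, the log2 fold change was -0.65 ± 0.15 (edgeR adjusted p = 0.00321), and it has 18 near-identical copies.

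Among small subunit genes Rps27a, which encodes ubiquitin fused to a ribosomal protein (chr11:29545846-29548109), had the largest fall, with wide spread between libraries. It read 579, 815 and 834 CPM in WT and 275, 582 and 226 CPM in KO. KO replicate 2 was level with WT replicate 1, so the groups overlapped. The log2 fold change was -1.04 ± 0.26 with an adjusted p of 0.00468 in edgeR and 0.0827 in DESeq2, and 9 near-identical copies exist. Rps7 (chr12:28630854-28635953), with no such copy, was clearer: 750, 790 and 823 CPM in WT against 452, 584 and 519 CPM in KO, a log2 fold change of -0.60 ± 0.08 (edgeR adjusted p = 3.14e-05).

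A few members known for a role outside the ribosome, a disease or a signalling pathway are given here. They were chosen after their values were seen and stand for no group, beside 63.2% lower among all members. Rpl5 and Rpl11 bind MDM2 with 5S ribosomal RNA when ribosome assembly is disturbed. Rpl5 was at 1231, 1334 and 1324 CPM in WT and 872, 1046 and 876 CPM in KO (log2 fold change -0.48 ± 0.07, edgeR adjusted p = 9.19e-05). Rpl11 was at 643, 684 and 716 CPM in WT and 543, 559 and 463 CPM in KO (log2 fold change -0.38 ± 0.07, edgeR adjusted p = 0.000565). Rps19, the gene most often mutated in Diamond-Blackfan anaemia, was at 1000.5, 1091 and 1102 CPM in WT and 748, 872 and 692 CPM in KO (log2 fold change -0.47 ± 0.08, edgeR adjusted p = 0.000211). Rps6, the substrate of S6 kinase, was at 2018, 2175 and 2199 CPM in WT and 1576, 1933 and 1582 CPM in KO (log2 fold change -0.33 ± 0.07, edgeR adjusted p = 0.00248). In these 4 the groups were separate. Rpl13a, part of the GAIT complex that silences inflammatory mRNAs, read 73.4, 80.2 and 80.4 CPM in WT and 68.4, 86.6 and 68.7 CPM in KO, overlapping groups that did not pass (log2 fold change -0.065 ± 0.09, edgeR adjusted p = 0.555).

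Levels were set against each other per length of exon, as FPKM (CPM divided by the exon length in kilobases). This length covers all annotated exons of a gene and can exceed that of its mRNA. For Rpl41 it was 1168 bases against an mRNA of 437, and for Rps3a1 977 in both. The order of FPKM values therefore depends on the annotation, and an order per mRNA length could differ. WT means ran from 3.31 to 3737 FPKM with a median of 393. The stalk genes Rplp1 and Rplp0 led. Rplp1 was at 3737 ± 111 FPKM in WT and 2829 ± 293 in KO (SD, n = 3), and Rplp0 at 2273 ± 83.3 and 1948 ± 208. Rplp2, also of the stalk, was below the median of the members, at 317 ± 8.37 in WT and 268 ± 31.2 in KO. Rplp1 was lower (1801, 1899 and 1895 CPM in WT, 1391, 1567 and 1277 CPM in KO, log2 fold change -0.40 ± 0.07, edgeR adjusted p = 0.000278). Rplp0 had 3622, 3896 and 3793 CPM in WT against 2964, 3621 and 3111 CPM in KO, groups that came within 2 CPM of each other in KO replicate 2. Its log2 fold change of -0.22 ± 0.07 (edgeR adjusted p = 0.0154) no longer passed without KO replicate 1, KO replicate 3, WT replicate 2 or WT replicate 3, with adjusted p values of 0.0569 to 0.0875.

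The next FPKM values were those of Rps3a1 at 1830 ± 109 FPKM, Rpl36 at 1806 ± 65.2 and Rpl8 at 1491 ± 57.5 in WT. Rps3a1 and Rpl36 did not differ in FPKM beyond their spread. Rps3a1 read 1666, 1838 and 1860 CPM in WT and 1582, 1755 and 1475 CPM in KO, overlapping groups with a log2 fold change of -0.16 ± 0.07 (edgeR adjusted p = 0.0688). It passed without WT replicate 1 (adjusted p = 0.0396) or without KO replicate 2 (adjusted p = 0.000126). Of the 10 members with the highest WT FPKM, 7 were lower, beside 63.2% of all members and 23.6% of all genes tested.

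**Figure D3:**
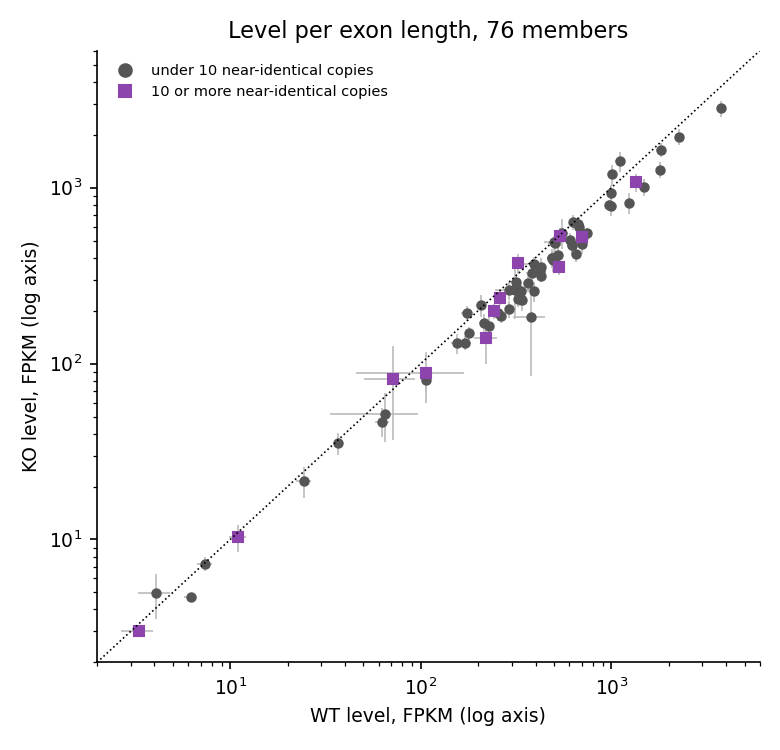
Mean level of each RP gene in WT (horizontal) and KO (vertical), in FPKM on log axes, with SD over 3 libraries as bars; squares have 10 or more near-identical copies of their mRNA in the genome, and the dotted line marks equal levels. Most genes lie below the line, and the members near the bottom left have levels as low as 3.31 FPKM.

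At the low end, 4 members had under 25 CPM in WT. Rpl29 was counted at 3.06, 3.59 and 4.51 CPM in WT and 3.13, 3.66 and 3.41 CPM in KO, and it has 14 near-identical copies. Rpl24 was counted at 3.37, 4.26 and 4.96 CPM in WT and 3.75, 6.64 and 4.88 CPM in KO, and 47.0% of its exon bases are shared with Gm28037. Rps10 was counted at 13.2, 14.4 and 15.4 CPM in WT and 11.4, 10.4 and 10.8 CPM in KO, with 28.7% of its exon bases shared with Gm15420 or RPS10-NUDT3. Only Rps10 passed the test (log2 fold change -0.40 ± 0.10, edgeR adjusted p = 0.0062). Rpl34, the last of the 4, is described below. Reads that map to several places or touch several genes were not counted, so for these genes the count is a lower limit on the reads the mRNA gave, and how much was lost was not tested.

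Some genes varied more between replicates than between genotypes. Rps2, with 25 near-identical copies, read 264, 257 and 66.8 CPM in WT and 115, 151 and 217 CPM in KO. Rpl7a, with 29 copies, read 102, 172 and 110 CPM in WT and 134, 229 and 71.7 CPM in KO. Rpl21, for which the search found none, read 116, 215 and 329 CPM in WT and 204, 213 and 113 CPM in KO. All 3 had overlapping groups, and their 95% intervals were wide, reaching from -1.06 to 0.50 for Rps2, from -0.46 to 0.82 for Rpl7a and from -0.93 to 0.30 for Rpl21. They were named after their values were seen.

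Members were also grouped by whether other sequences contest their reads. The shares over all genes tested, for comparison, were 23.6% lower and 25.1% higher. The 29 members without a near-identical copy (at least 95% identity over at least 80% of the mRNA) held 22 lower and 0 higher genes, with a median log2 fold change of -0.37, and all 29 were below zero. The 47 with such a copy held 26 lower and 3 higher genes, with a median of -0.25. Among the 40 that share no exon base with another gene 27 were lower (median -0.29), and among the other 36, 21 were lower (median -0.32). The 16 members with neither a copy nor a shared exon base held 13 lower and 0 higher genes (median -0.38). Copies shorter than this limit were not counted, and their part in these values was not tested.

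Very small changes were found in Rpl34 and Rpl23a, both with at least 100 reads on average. Rpl34 read 19.2, 21.5 and 17.8 CPM in WT and 18.8, 21.2 and 17.8 CPM in KO (log2 fold change -0.014, 95% interval -0.23 to 0.20). Rpl23a, which lies near the exit of the peptide tunnel, read 424, 462 and 483 CPM in WT and 398, 505 and 444 CPM in KO (log2 fold change -0.024, 95% interval -0.19 to 0.15). The groups overlapped in both, and in each the lower end of the interval lay above the median of -0.31 of all RP genes. Rpl34 has 5 near-identical copies. Rpl23a has 17, and 62.3% of its exon bases are shared with Tlcd1 or Snord42b, where reads were not counted. The part of this in their values was not tested.

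The 3 higher members all lie on chromosome 10. Rpl41, a peptide so small that it is almost all basic residues (chr10:128548114-128549305), read 1212, 1321 and 1357 CPM in WT and 1614, 1882 and 1453 CPM in KO. All KO values were above all WT values (log2 fold change 0.35 ± 0.08, edgeR adjusted p = 0.00295). Rps15 (chr10:80292453-80294114) read 594, 637 and 668 CPM in WT and 713, 864 and 679 CPM in KO, a narrower gap (log2 fold change 0.25 ± 0.08, edgeR adjusted p = 0.0209). Rps12 (chr10:23785183-23787275), with 22 near-identical copies, read 639, 626 and 693 CPM in WT and 702, 865 and 696 CPM in KO (log2 fold change 0.21 ± 0.08, edgeR adjusted p = 0.0409). Here the lowest KO library exceeded the highest WT library by little. Rps15 and Rps12 no longer passed without WT replicate 1 (adjusted p = 0.0930 and 0.116) or WT replicate 2 (0.0648 and 0.156), and Rps12 also not without KO replicate 2 (0.0552). Rpl41 passed in each of these.

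The whole of chromosome 10 was higher in KO. Over its 689 tested genes the median log2 fold change was 0.45, and 66.0% of them were called higher and 8.27% lower, the largest shift of any chromosome carrying a member. The fourth RP gene there, Rps26 (chr10:128624534-128626747), read 1019, 1052 and 1061 CPM in WT and 898, 1062 and 822 CPM in KO. Its groups overlapped (log2 fold change -0.17 ± 0.08, edgeR adjusted p = 0.0818). Set against the median of all genes tested on the chromosome, the 4 members stood at -0.098 for Rpl41, -0.20 for Rps15, -0.24 for Rps12 and -0.62 for Rps26. These differences were not tested. Off chromosome 10, 48 of 72 members (66.7%) were lower and 0 were higher in edgeR's test. Of all genes tested, chromosome 10 included, 23.6% were lower and 25.1% higher. Only chromosome 10 was set aside here, and chromosomes with a median below zero stayed in.

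Chromosome 1 showed the reverse. Its 885 tested genes had a median log2 fold change of -0.21, with 44.3% called lower, and all 3 members there, Rpl37a, Rpl31 and Rpl7, were lower. Rpl7, a protein of the large subunit, read 1583, 1740 and 1708 CPM in WT and 1170, 1449 and 1199 CPM in KO (log2 fold change -0.40 ± 0.07, edgeR adjusted p = 0.00067), with no overlap. On chromosome 7, which carries 14 members and whose 1123 tested genes had a median of -0.015, 11 members were lower. Of those 1123 genes 23.0% were called lower. With each gene set against the median of its own chromosome, 70 of 76 members were below zero and their median was -0.31. The part of these chromosome-wide shifts in the members' values was not tested beyond this subtraction.

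**Figure D4:**
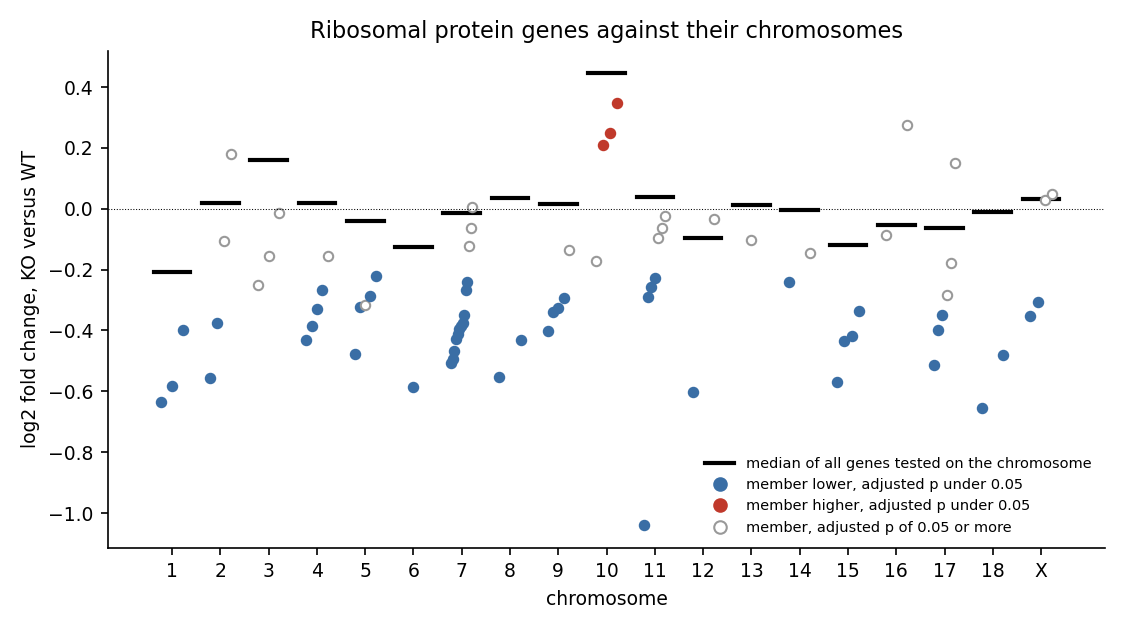
Log2 fold change of each RP gene, KO versus WT (vertical axis), by chromosome (horizontal axis); black bars are the median of all genes tested on that chromosome. Most members lie below the bar of their chromosome, including the 4 on chromosome 10, where the bar stands at 0.45.

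RefSeq start sites were read for pyrimidine runs of the kind that form a TOP tract. RefSeq promoter entries (GRCm38.p6) were matched for 56 of the 76 members. The windows printed here run from 20 bases before the start to 10 bases from the start onward, 5′ to 3′ on the gene's strand. They are those of named lower and higher members with a single entry. Capitals mark runs of at least 6 pyrimidines.
Rpl37a (chr1:72711240-72711269, + strand): gtcacttccgctcgccggtctaaaaccgcg
Rps7 (chr12:28635944-28635973, - strand): gaagagcttccggtttccacccacctactt
Rpl31 (chr1:39367831-39367860, + strand): caCCTCTTCCTCCTCgCCTCCCCgtgaccc
Rpl35 (chr2:39005122-39005151, - strand): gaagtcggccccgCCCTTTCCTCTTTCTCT
Rpl13 (chr8:123102330-123102359, + strand): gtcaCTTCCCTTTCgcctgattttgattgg
Rpl41 (chr10:128549159-128549188, - strand): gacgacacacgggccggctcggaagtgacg
Rps15 (chr10:80292411-80292440, + strand): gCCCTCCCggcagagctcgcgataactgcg
Rps12 (chr10:23787200-23787229, - strand): ttaaataccgtcatgcggccaccgccggcc

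Long pyrimidine runs stand at or near the start in Rpl31 and Rpl35, upstream of it in Rpl13 and Rps15, and nowhere in the windows of Rpl37a, Rps7, Rpl41 and Rps12. The lower members thus include windows with and without such a run. A C followed by at least 5 more pyrimidines was sought on the gene's strand, starting within 10 bases before or after the RefSeq start. It was held by 31 of 56 members (55.4%) and by 21.9% of all 27025 genes with an entry. A run before the start would lie outside the mRNA. It was held by 16 of the 34 lower members with an entry (47.1%) and by 14 of the 19 that did not pass (73.7%). The letters CCGGAAG, which ETS family factors such as GABP are known to bind, were found on either strand of the 300-base window in 23 of 56 members (41.1%) and in 9.93% of all genes. RefSeq starts can differ from those used in these cells, so a window without a run says only that the letters are not there.

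The ribosomal components that carry other names were mostly lower too. Rack1, a scaffold on the head of the small subunit, read 1833, 1937 and 1954 CPM in WT and 1391, 1647 and 1386 CPM in KO (log2 fold change -0.37 ± 0.07, edgeR adjusted p = 0.000466). Fau, a fusion that releases the small subunit protein S30, read 873, 905 and 904 CPM in WT and 655, 771 and 613 CPM in KO (log2 fold change -0.40 ± 0.07, edgeR adjusted p = 0.000569). Rpsa was lower as well (log2 fold change -0.36 ± 0.07, edgeR adjusted p = 0.00111). Of the 4 genes in this list 3 were lower and 0 higher, against 23.6% lower and 25.1% higher among all genes tested.

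Of the 9 RP paralogs, genes that encode variants of a ribosomal protein, 6 passed the filter, with a median log2 fold change of 0.082. Of these, 1 (16.7%) was lower and 0 were higher, against 23.6% lower and 25.1% higher among all genes tested. The lower one was Rpl22l1, at 46.9, 48.9 and 51.2 CPM in WT and 39.0, 41.3 and 37.95 CPM in KO (log2 fold change -0.31 ± 0.07, edgeR adjusted p = 0.00151). Its partner Rpl22 was lower too (log2 fold change -0.27 ± 0.06, edgeR adjusted p = 0.00394).

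Genes outside the ribosome whose mRNAs also carry a TOP tract were mostly lower. Of 18, 12 (66.7%) were lower and 3 (16.7%) higher, against 23.6% lower and 25.1% higher among all genes tested. Among the RP genes 63.2% were lower. The median log2 fold change of the 18 was -0.21, and -0.27 for those off chromosome 10. Chromosomes with a median below zero were not set aside, and chromosome medians were not subtracted from the values of this list. Pabpc1, the cytoplasmic poly(A) binding protein, went from 3160, 3173 and 3228 CPM in WT to 1857, 1953 and 1903 CPM in KO (log2 fold change -0.74 ± 0.05, edgeR adjusted p = 3.54e-08). Eif4b, an initiation factor that assists the helicase eIF4A, went from 1261, 1250 and 1284 CPM to 901, 825 and 855 CPM (log2 fold change -0.56 ± 0.05, edgeR adjusted p = 1.41e-06). In both the KO libraries were far below WT and close to each other, KO replicate 2 included. Of the 3 higher genes, Nap1l1 (log2 fold change 0.35 ± 0.06, edgeR adjusted p = 0.000155) and Naca (0.29 ± 0.07, adjusted p = 0.00397) lie on chromosome 10 and Tpt1 (0.30 ± 0.07, adjusted p = 0.00315) on chromosome 14. Eef2, also on chromosome 10, was lower (-0.13 ± 0.05, adjusted p = 0.0401).

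The lists of assembly factors had smaller medians. Of 40 assembly factors of the small subunit 17 (42.5%) were lower and 4 (10%) higher (median -0.098), against 23.6% and 25.1% of all genes tested. Noc4l went from 110, 105 and 113 CPM in WT to 62.0, 62.8 and 58.8 CPM in KO (log2 fold change -0.83 ± 0.06, edgeR adjusted p = 8.18e-08), and Heatr1 from 81.1, 78.5 and 81.9 CPM to 58.3, 47.6 and 58.5 CPM (-0.55 ± 0.08, adjusted p = 4.70e-05). Of the 4 higher genes, Ltv1 (0.62 ± 0.08, adjusted p = 1.90e-05), Krr1 (0.33 ± 0.07, adjusted p = 0.00181) and Pwp2 lie on chromosome 10, and Utp3 does not.

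Of 41 assembly factors of the large subunit 11 (26.8%) were lower and 4 (9.76%) higher (median -0.059), a share of lower genes near the 23.6% of all genes tested. With the length trend removed 18 were lower. Nvl (-0.46 ± 0.06, edgeR adjusted p = 5.64e-05) and Ddx18 (-0.44 ± 0.06, adjusted p = 0.0001), both on chromosome 1, had the smallest p among the lower genes. The lowest log2 fold change in the list was -0.57. Rrp1, on chromosome 10, went from 173, 180 and 181 CPM in WT to 356, 388 and 341 CPM in KO (1.02 ± 0.06, adjusted p = 1.52e-08). Nmd3, the adaptor that takes the large subunit out of the nucleus, went from 61.2, 70.2 and 67.9 CPM to 95.7, 102 and 92.1 CPM (0.54 ± 0.07, adjusted p = 1.85e-05) and lies on chromosome 3. The other higher genes were Rpf2, on chromosome 10, and Rsl24d1.

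Transcription of ribosomal RNA and its modification were read through 2 lists. In each, 33.3% of the genes were lower and 0 higher, against 23.6% lower and 25.1% higher among all genes tested. Of 12 genes for RNA polymerase I transcription 4 were lower and 0 higher (median log2 fold change -0.15). The smallest p among the lower genes were those of the largest subunit Polr1a (-0.44 ± 0.06, edgeR adjusted p = 3.32e-05) and the initiation factor Taf1c (-0.50 ± 0.08, adjusted p = 0.00016). Of the 9 core proteins of small nucleolar ribonucleoproteins 3 were lower and 0 higher (median -0.15), among them Dkc1, the pseudouridine synthase (-0.35 ± 0.06, adjusted p = 0.000545), and Nhp2 (-0.28 ± 0.08, adjusted p = 0.0096). Nhp2 no longer passed without KO replicate 1 (adjusted p = 0.0634) or WT replicate 3 (0.0506), when 1 gene of the list was lower, and without KO replicate 2 or with the length trend removed 5 were lower. None of the 4 dedicated RP chaperones passed edgeR's test in either direction, and DESeq2 also called 0.

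Among 14 known regulators of RP synthesis 6 (42.9%) were lower and 1 (7.14%) higher, against 23.6% and 25.1% of all genes tested. Without WT replicate 2 or KO replicate 1 the lower genes were 3. Myc, which drives ribosome production, went from 141, 128 and 134 CPM in WT to 73.8, 73.7 and 74.6 CPM in KO (log2 fold change -0.86 ± 0.06, edgeR adjusted p = 5.41e-08). Tsc1, a brake on mTOR, was also lower (-0.50 ± 0.07, adjusted p = 6.45e-05), and Eif4ebp2, on chromosome 10, was higher (0.31 ± 0.06, adjusted p = 0.000514). Chromosome medians were not subtracted from the values of this list, neither for the lower nor for the higher genes. Larp1, the TOP binding protein, read 229, 215 and 207 CPM in WT and 235, 198 and 234 CPM in KO and did not pass (0.036 ± 0.07, adjusted p = 0.693), nor did Mtor (-0.049 ± 0.08, adjusted p = 0.635).

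The mitochondrial RP genes, which serve the separate ribosome of mitochondria, were read as a list of their own. Of 77 tested, 17 (22.1%) were higher and 2 (2.60%) lower, against 25.1% higher and 23.6% lower among all genes tested, and the median log2 fold change was 0.11. Mrps6 went from 36.4, 40.2 and 40.1 CPM in WT to 81.9, 96.5 and 79.3 CPM in KO (1.14 ± 0.08, edgeR adjusted p = 8.20e-08), and Mrps21 from 38.2, 34.4 and 38.7 CPM to 52.4, 54.4 and 46.8 CPM (0.46 ± 0.08, adjusted p = 0.000217). The lower genes were Mrpl44 (-0.32 ± 0.09, adjusted p = 0.00878) and Mrps18b (-0.23 ± 0.09, adjusted p = 0.0462). Mrps18b no longer passed in DESeq2 (adjusted p = 0.136), with no filter on low counts (0.0547) or without WT replicate 1, WT replicate 2, KO replicate 1 or KO replicate 3 (0.112 to 0.161), and Mrpl44 not without KO replicate 1 (0.0535). The number of lower genes was 9 without KO replicate 2, 0 without KO replicate 1 and 1 without WT replicate 1, WT replicate 2 or KO replicate 3, and that of higher genes 26 without KO replicate 3.

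**Figure D5:**
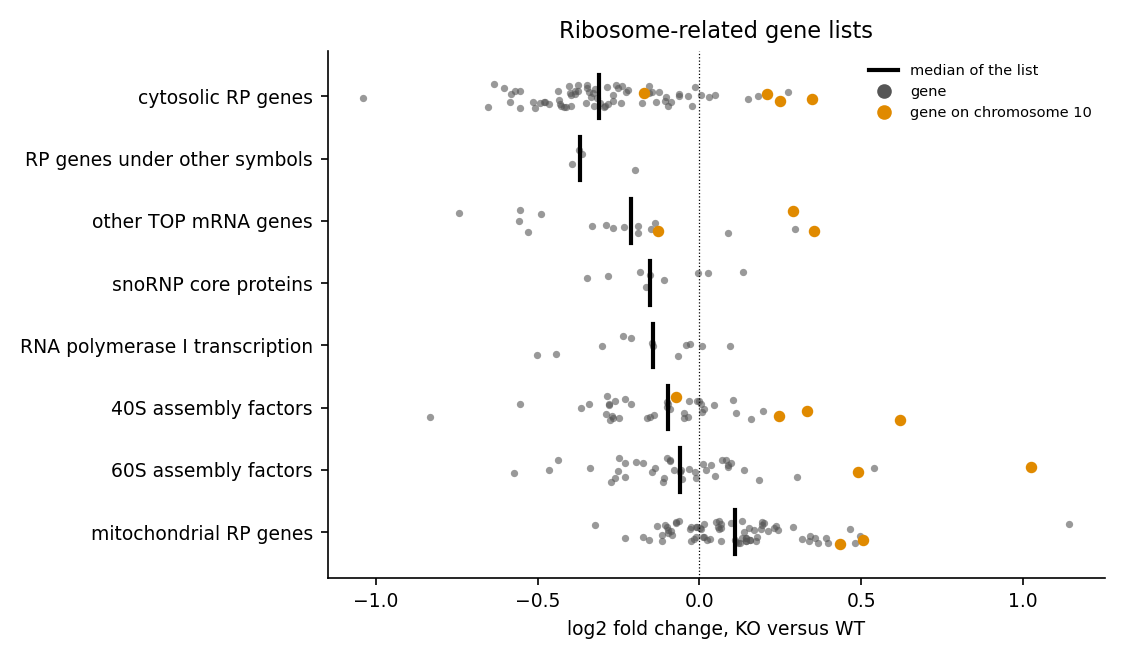
Log2 fold change of each tested gene, KO versus WT (horizontal axis), for the cytosolic RP genes and 7 related lists (rows); black bars are medians, and chromosome 10 genes are set apart by colour. The medians run from -0.37 for the ribosomal genes under other symbols to 0.11 for the mitochondrial RP genes, and 5 of the 8 higher assembly factor genes lie on chromosome 10.

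RNA that shares sequence or a locus with the RP genes gave a mixed picture. Of 291 annotated RP pseudogenes 91 passed the filter, with a median log2 fold change of -0.13. Of these, 28 (30.77%) were lower and 10 (10.99%) higher, against 23.6% lower and 25.1% higher among all genes tested. Without WT replicate 1 or WT replicate 2 the higher ones were 6. Rps26-ps1 went from 37.6, 58.1 and 73.2 CPM in WT to 180, 316 and 256 CPM in KO (2.15 ± 0.21, edgeR adjusted p = 2.33e-06), and Rps2-ps10 from 707, 734 and 762 CPM to 399, 490 and 414 CPM (-0.76 ± 0.07, adjusted p = 1.82e-06). Rps2-ps10 thus had more counted reads than Rps2 itself in every library. Reads of a parent gene and its pseudogene cannot be told apart where their sequences are the same, and adding pseudogene reads to the RP genes left the share at 7.05% ± 0.328 in WT and 5.74% ± 0.603 in KO. Rpl19-ps11 was higher (0.78 ± 0.11, edgeR adjusted p = 8.69e-05).

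Many RP introns hold small nucleolar RNA genes, and 29 members host at least 1 of the 55 annotated within RP genes. Of those 55, 12 passed the filter, 1 was lower and 0 were higher: Snord55, at 3.67, 1.59 and 3.00 CPM in WT and 2.12, 0.957 and 0.999 CPM in KO (-1.01 ± 0.36, edgeR adjusted p = 0.0323). Snord55 no longer passed without WT replicate 1, WT replicate 3, KO replicate 2 or KO replicate 3 (adjusted p = 0.0513 to 0.139). The 29 hosts had a median log2 fold change of -0.32 and the 47 other members -0.29. The 1 lower of 12 (8.33%) stands beside 23.6% lower among all genes tested, and at such counts these short RNAs are barely measured.

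Circular RNAs from RP genes were rare. In the junction lists of whole cells, only 3 circRNAs lay within a member. The circle in Rpl10a (chr17:28328966-28329280) had 4 and 8 junction reads in the WT libraries and 5 and 5 in the KO libraries. The circle in Rpl8 (chr15:76904302-76905971) had 6 and 7 in WT and 2 and 1 in KO, and that in Rpl4 (chr9:64174823-64176216) was not listed in WT replicate 1, had 1 read in WT replicate 2 and 3 in each KO library. Each whole-cell library listed between 9779 and 9907 circRNAs. None of the cytoplasmic or nuclear lists, which held 957 to 8909 circRNAs, contained a circle within a member. Counts this small do not allow a difference between genotypes to be seen.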

How the data were processed

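The 6 mRNA tables and 12 circRNA lists from NIH/3T3 cells were used. The authors removed ribosomal RNA from total RNA, sequenced 150-nucleotide pairs, aligned with HISAT2 to mm10 and, per the file headers, counted fragments per gene over exons with featureCounts 2.0.0; the deposited mRNA values are raw counts. The headers show counting without strand, without multi-mapping reads and without reads that touch several genes. The circRNA values are deposited junction read counts.

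Gene IDs were named through GENCODE M21, which matched 55141 of 55401 IDs; the release the authors used is not given in the sources used here. Counts were scaled by TMM, filtered with filterByExpr and fitted with edgeR 4.0.16 (glmQLFit, glmQLFTest; R 4.3.3) on the 6 libraries with no covariate. P-values were adjusted by Benjamini-Hochberg over all 14688 genes tested, with a threshold of 0.05. CPM are TMM-scaled; FPKM divide them by the exon length in the file. For the share of reads, an exact permutation test (two-sided) was used. Near-identical copies were sought with blastn 2.17.0 on the mm10 chromosomes (at least 95% identity over at least 80% of the mRNA). The test was checked on simulated counts with known changes. Groups follow sample titles. Nothing states that replicates came from separate cultures, so p-values measure only the spread between these libraries, which may be technical.

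Named genes were the 10 lower members with the largest change, the higher members, the 5 with the highest WT FPKM, the 3 with the smallest change, Xpo4, and in each list the 2 genes with the smallest p in each direction; others are said to be chosen afterwards or stand for a known role. Some genes that these rules or lists name are not reported here, though counts and medians include them. The members and lists were chosen with earlier results of these data known. Polr1f, Polr1g and Polr1h were not matched under those symbols. Alternatives were 3 other scalings, no filter, DESeq2 1.42.0, removal of a length trend, a replicate block, and each library left out in turn.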

Additional observations from a re-analysis of the deposited data

How the results depend on the processing

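The lower calls of the RP genes held: 41 of the 48 were lower under every setting, and the number lower was 42 to 58 with a library left out, 47 in DESeq2, 55 without the filter on low counts and 55 with the length trend removed. The median log2 fold change of the RP genes stayed between -0.30 and -0.37 for settings that kept all libraries, between -0.26 and -0.39 with a library left out, and at -0.37, -0.29 and -0.38 for members without a near-identical copy, those sharing no exon base and those with neither, all chosen after seeing the data. The number higher was 5 without the filter, adding Rps28 and Rpl7a, and 1 to 4 with a library left out: 1 without WT replicate 1 or WT replicate 2 and 4, adding Rps28, without KO replicate 3. Genes near zero changed sign: with a library left out Rpl34 ran from -0.080 to 0.059 and Rpl23a from -0.11 to 0.062. The cause was not tested.

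Replicate numbers did not pair the libraries: same-numbered deviations correlated at 0.048, 0.024 and -0.075. With the replicate block 7124 genes were called, 52 RP genes were lower and 3 higher, their median was -0.30, and Rps3a1 passed (adjusted p = 0.0392). The difference in read share of -1.25 percentage points ranged from -1.05 to -1.56 with a library left out and was -1.30 with pseudogenes added. Leaving mitochondrially encoded genes out of the total changed nothing, since they were listed at 0. The assembly factor list of the large subunit had 18 lower genes with the length trend removed.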
